A study of Mus musculus with 11 samples.

Results

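The genes described here encode 4 ligand and receptor pairs through which dendritic epidermal T cells (DETCs) and keratinocytes (KCs) are known to signal to each other: Jaml and Cxadr, Sema4d and Plxnb2, Fgf7 and Fgf10 with Fgfr2, and Igf1 with Igf1r. They were listed by name from what is known of this crosstalk, and all 9 were among the 52550 genes of the deposited table. The study sorted KCs and DETCs from the flank epidermis of mice with and without Langerhans cells (LCs) and sequenced their poly-A RNA. WT KCs, LC-/- KCs and WT DETCs had 3 libraries each and LC-/- DETCs had 2, all from 8-week-old female mice. LC-/- mice carry the huLangerin-DTA transgene, in which the human langerin promoter drives the A subunit of diphtheria toxin, so their LCs are missing from birth and the epidermis matured without them. WT mice were their littermates without the transgene, and the study names FVB, in passing, as the background of LC-/- mice. Both sorts took live single cells without MHC-II, langerin or c-kit on the surface. KCs were the cells without CD45 and DETCs the cells with CD45, so no T cell receptor chain was part of the DETC gate. Libraries are written W1 to W3 for WT and L1 to L3 for LC-/- in the order of the numbers in their labels. Where both populations have a library of the same name, their labels carry the same number, but nothing states that this number marks 1 mouse.

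DETCs are γ/δ T cells with a nearly invariant receptor that sit between the KCs of mouse epidermis, survey them through dendrites and help wounds to close. JAML on the DETC binds CXADR on the KC and co-stimulates the T cell, while CD100, the product of Sema4d, is bound by plexin-B2 on the KC and rounds up the DETC after wounding. Activated DETCs are known to release FGF7, FGF10 and IGF1, which act through FGFR2 and the IGF1 receptor to drive the growth, migration and survival of KCs.

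Values are normalized counts, which are reads per gene divided by a size factor for each library. Reads on genes numbered from 13491075 to 19750440 per library, and 3 reads, the most that a count of 0 allows, were worth 2.48 to 3.32 normalized counts or 1.52e-05% to 2.22e-05% of a library. These limits cover counting error only. Of the 9 genes, 6 passed the filter on low values, a CPM above 1 in at least 2 of the 11 libraries, and Fgf7, Fgf10 and Igf1 did not. Jaml passed through its DETC libraries alone. In bulk samples of sorted cells, fewer cells of a type and less RNA per cell cannot be told apart.

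Cd207, which encodes langerin, had 0 reads in the 3 LC-/- KC libraries and 6.15, 26.9 and 15.6 normalized counts in WT KCs. All 22 keratinocyte markers were above 3 reads in every DETC library, where they summed to 120519, 137868 and 140848 normalized counts in WT and to 198038 (L2) and 126674 (L3) in LC-/-. In KC libraries the same markers summed to between 750053 and 792921, with Krt5 the most abundant. The DETC mean of a keratinocyte marker was 16.5% of its KC mean by the median over markers in WT (9.32% to 33.1%) and 20.7% in LC-/- (10.35% to 34.71%). By library the median was 15.3% in W1, 15.1% in W2, 18.8% in W3, 24.97% in L2 and 16.2% in L3, so the DETC library L2 stood highest. The reverse was rare: the 18 DETC markers in KC libraries had a median of 0.00842% of their DETC mean in WT and 0.0135% in LC-/-, and Thy1 was the highest at 2.03% and 1.495%. In DETC libraries all 18 were above 3 reads and summed to 286870, 293242 and 300745 normalized counts in WT and to 281950 (L2) and 283702 (L3) in LC-/-, with Trdc or Il2rb the most abundant, against 361 to 677 in KC libraries, mostly Thy1. Receptor levels in DETC libraries are therefore given beside the keratinocyte markers of the same library.

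Jaml encodes a junctional adhesion molecule of the immunoglobulin family (chromosome 9, 45079183 to 45108534, GRCm38). Its normalized counts were 3074, 3311 and 3567 in WT DETCs and 2128 (L2) and 2937 (L3) in LC-/- DETCs. WT KCs held 2.05, 0.928 and 0, from 3 reads in all, and LC-/- KCs 3.31 (L1), 3.05 (L2) and 10.5 (L3). Every DETC library lay far above every KC library, and among KC libraries only L3 exceeded 3 reads, with 10. The ratio of scaled reads, DETC over KC, was 3560 in WT with a 95% counting interval from 1220 to 17300, and 445 (274 to 779) in LC-/-. These intervals pool the reads of a group and cover counting error only. They leave out the differences between libraries, which were larger than counting error, and are no test of the populations. Of the 16 KC reads in LC-/-, 10 came from L3, so the second ratio rests mostly on that library. Jaml passed the filter only where it is high, so it had to differ between the populations, and no test of that difference is given. Both LC-/- DETC libraries lay below the lowest WT library, L3 by a small margin. The difference in DETCs was 0.755-fold (95% interval 0.603 to 0.946), which missed the threshold (adjusted p = 0.167). Without L3 it was -0.64 on the log2 scale with an adjusted p of 0.0354, without L2 it was -0.17 with an adjusted p of 0.606, and over the alternatives the adjusted p ran from 0.0354 to 0.688. The 3 LC-/- KC libraries held more Jaml than the 3 WT libraries, at 1.70 on the log2 scale (0.21 to 3.18, adjusted p = 0.148), a difference between 16 and 3 reads that was 2.12 with a pseudocount of 0.5 and 0.56 with a pseudocount of 8. DETC markers were unevenly present in the same libraries: 9 of 18 were above 3 reads in L3 and 2 to 4 in the other 5, and their median share of the DETC mean was 0.0232% in L3 and 0.00338% to 0.00792% in the others. In LC-/- against WT KCs these markers had a median log2 difference of 0.30, and of -0.07 without L3, with 11 of the 18 above 0 and 7 below. Of the 18, 1 was called, against 7.23% of all tested genes. The part of DETC RNA in the Jaml values of KCs was not tested.

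Cxadr, the coxsackievirus and adenovirus receptor and partner of JAML, is a component of epithelial junctions (chromosome 16, 78301489 to 78359774). It had 9465, 10198 and 10656 normalized counts in WT KCs and 12575, 10389 and 12764 in LC-/- KCs (L1, L2, L3). DETC libraries held 2103, 1965 and 2422 in WT and 3258 (L2) and 2511 (L3) in LC-/-. KC and DETC libraries did not overlap, with the lowest KC library (W1) far above the highest DETC library (L2). Cxadr in DETCs was 0.214-fold (0.185 to 0.247) its level in KCs in WT (adjusted p = 2.07e-08) and 0.241-fold (0.188 to 0.31) in LC-/- (adjusted p = 4.12e-05). As shares of the KC mean, DETC libraries held 20.8%, 19.4% and 24.0% in WT and 27.4% (L2) and 21.1% (L3) in LC-/-. The 5 libraries stood in the same order for Cxadr as for the median of the keratinocyte markers, with L2 first and W2 last. Over the group means, 18 of the 22 keratinocyte markers had a lower share than Cxadr in WT and 17 in LC-/-. How much of the Cxadr in DETC libraries came from DETCs was not tested.

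Cxadr was higher in LC-/- than in WT libraries of both populations without passing the test. In KCs the groups overlapped, because L2 lay below W3, and the fold was 1.17 (0.986 to 1.4, adjusted p = 0.219), a log2 difference of 0.23 that was 0.10 with CPM and 0.01 with quantile normalization (adjusted p from 0.0659 to 0.96 over the alternatives). In DETCs both LC-/- libraries lay above the 3 WT libraries, at 1.33-fold (1.07 to 1.65, adjusted p = 0.154). The 22 keratinocyte markers had a median log2 difference of 0.29 in DETCs and 0.04 without L2, against 0.02 over all tested genes, and their part in the Cxadr values was not tested. Without L2 the log2 difference of Cxadr in DETCs was 0.22 in place of 0.41. Reads of Cxadr could not be told from those of Btg3 on the opposite strand over the 695 exonic bases they share, 9.39% of the Cxadr exons, because the strand setting of the counting was not given in the sources used here. The exons of Jaml share 397 bases, or 12.8%, with Gm10684 on the opposite strand.

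Sema4d encodes CD100, a transmembrane semaphorin of T cells (chromosome 13, 51685529 to 51793747). It had 1954, 2391 and 2503 normalized counts in WT DETCs and 1439.9 (L2) and 2160.5 (L3) in LC-/- DETCs. KC libraries held 448, 454 and 536 in WT and 551, 651 and 553 in LC-/- (L1, L2, L3). The transcript was thus present in both populations, and each DETC library lay above each KC library. Sema4d was 4.74-fold (4 to 5.63) higher in DETCs than in KCs in WT (adjusted p = 6.29e-08) and 3.02-fold (2.23 to 4.1) in LC-/- (adjusted p = 0.000308). The KC mean was 21% of the DETC mean in WT and 32.5% in LC-/-, while the highest of the 18 DETC markers, Thy1, reached 2.03% and 1.495%.

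No difference between genotypes passed the test for Sema4d. Each LC-/- KC library lay above each WT KC library, at 1.22-fold (1.02 to 1.46, adjusted p = 0.163). In DETCs L2 lay below all WT libraries and L3 lay within them, at 0.777-fold (0.584 to 1.03, adjusted p = 0.317). The difference of these changes, tested as an interaction, was -0.65 on the log2 scale (-1.13 to -0.175, adjusted p = 0.26). It was -0.94 with an adjusted p of 0.0485 without the DETC library L3 and -0.36 with an adjusted p of 0.536 without the DETC library L2, and these were the ends of the range over the alternatives. L2 had the lowest Sema4d and the highest sum of keratinocyte markers among the DETC libraries, and the part of keratinocyte RNA in the Sema4d values was not tested.

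Plxnb2 encodes plexin-B2, the KC receptor for CD100 (chromosome 15, 89155549 to 89180788). It had 5753, 5917 and 5775 normalized counts in WT KCs and 5672, 6774 and 6316 in LC-/- KCs (L1, L2, L3). DETC libraries held 1545, 1937 and 2018 in WT and 2357 (L2) and 1949 (L3) in LC-/-. All KC libraries lay above all DETC libraries, and within each population WT and LC-/- values overlapped. Plxnb2 in DETCs was 0.313-fold (0.268 to 0.366) its level in KCs in WT (adjusted p = 2.61e-07) and 0.344-fold (0.281 to 0.421) in LC-/- (adjusted p = 5.66e-05). At 31.5% of the KC mean in WT and 34.4% in LC-/-, its share in DETC libraries exceeded that of 21 of the 22 keratinocyte markers in each genotype, with Krtdap alone higher. Between genotypes the fold was 1.07 (0.947 to 1.22, adjusted p = 0.425) in KCs and 1.18 (0.944 to 1.47, adjusted p = 0.404) in DETCs. The small difference in KCs turned to the other direction with CPM (-0.03 on the log2 scale) and with quantile normalization (-0.09).

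The growth factors themselves were near or at 0. Fgf7, keratinocyte growth factor (chromosome 2, 126034658 to 126091185), had 3.07, 0 and 0 normalized counts in WT KCs, 3.31, 1.02 and 0 in LC-/- KCs, 3.27, 2.48 and 0 in WT DETCs and 1.94 and 1.11 in LC-/- DETCs. Fgf10 (chromosome 13, 118669791 to 118792115) had 2 reads each in the KC libraries W2 and L3, at 1.86 and 2.10 normalized counts, and 0 in the other 9 libraries, the 5 DETC libraries included. No library thus exceeded 3 reads of Fgf7 or Fgf10, and no fold is given for them. A difference between KCs and DETCs or between genotypes was not detectable for these ligands at this depth. Of 20 other FGF ligands, 7 passed the filter and 6 were called between DETCs and KCs in WT, 4 higher and 2 lower, where 76% of all tested genes were called. Fgf13, Fgf11, Fgf18 and Fgf1 were the called ones with a mean of at least 10 over the 11 libraries. Fgf13, whose product stays inside the cell, had a mean of 263 normalized counts in WT DETCs and 78.3 in WT KCs, 3.33-fold higher in DETCs (adjusted p = 1.66e-06). Fgf1, a ligand of all FGF receptors, went the other way, with 42.3 in WT DETCs and 156 in WT KCs (adjusted p = 6.35e-06). Fgf2, below that mean and chosen after its values were seen, had 27.3, 14.0 and 35.0 in WT DETCs against 3.07, 1.86 and 0 in WT KCs, and 7.77 and 2.21 in LC-/- DETCs. Fgf2 passed the filter through WT DETC libraries alone and Fgf9 through DETC libraries alone. Both had to differ, and the count of FGF ligands called includes them.

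Fgfr2, whose epithelial splice form binds FGF7 and FGF10 (chromosome 7, 130162451 to 133123350), was among the abundant receptors of KCs. WT KCs held 6118, 6044 and 7023 normalized counts, and LC-/- KCs held 6201, 6270.4 and 6587 (L1, L2, L3). DETC libraries held 1003, 913 and 1255 in WT and 1651 (L2) and 1055 (L3) in LC-/-. KC values of the genotypes lay within each other, while the DETC library L2 lay above the other 4. Counts per gene do not separate the splice forms, and 314 of the annotated exonic bases of Fgfr2 (3.04%) are shared with Ctbp2 on the same strand. Fgfr2 in DETCs was 0.164-fold (0.137 to 0.197) its level in KCs in WT (adjusted p = 3.65e-08) and 0.208-fold (0.153 to 0.282) in LC-/- (adjusted p = 6.24e-05). Its share of the KC mean was 15.7%, 14.3% and 19.6% in the WT DETC libraries and 26.0% and 16.6% in L2 and L3, close to the keratinocyte median of each library and in the same order of libraries. In WT, 11 of the 22 keratinocyte markers had a lower share than Fgfr2 and 11 a higher one. Without LCs the fold was 0.995 (0.879 to 1.13, adjusted p = 0.983) in KCs. In DETCs it was 1.26 (0.913 to 1.74, adjusted p = 0.42), with a log2 change of 0.33 that was 0.01 without L2 and 0.66 without L3.

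Igf1 (chromosome 10, 87858265 to 87937042), the ligand that DETCs are known to make, had 1 read in the KC library W1 and 0 in the other 10 libraries. In the 5 DETC libraries its level was therefore at most 3.32 normalized counts. Igf2 had 0.971 to 8.81 normalized counts over the 11 libraries. Transcripts of neither IGF ligand were thus abundant in the sorted cells of either genotype.

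Igf1r encodes the IGF1 receptor, a tyrosine kinase of many cell types (chromosome 7, 67952827 to 68233668). Of the members tested, it differed least between the populations in each genotype. WT KCs held 2186, 1949 and 2288 normalized counts and LC-/- KCs 2065, 1825 and 2277 (L1, L2, L3). WT DETCs held 1644.5, 2033 and 2082 and LC-/- DETCs 2615 (L2) and 2591 (L3). The LC-/- DETC libraries were the highest of all 11, above every KC library and every WT DETC library, whereas the other groups overlapped. As shares of the KC mean, DETC libraries held 76.8%, 94.98% and 97.3% in WT and 127% and 126% in LC-/-, above all 22 keratinocyte markers in each group mean. The part of keratinocyte RNA in the Igf1r values was not tested.

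In WT mice Igf1r was 0.894-fold (0.761 to 1.05) in DETCs against KCs, which was not called (adjusted p = 0.181). In LC-/- mice it was 1.27-fold (1.06 to 1.52) higher in DETCs (adjusted p = 0.0268). The adjusted p ran from 0.0163 to 0.752 over the alternatives. This call was lost when the DETC library L2 (adjusted p = 0.147), the DETC library L3 (adjusted p = 0.14) or the KC library L1 (adjusted p = 0.0711) was left out. It also depended on the scaling: the log2 difference of 0.35 was 0.06 with CPM and 0.03 with quantile normalization, neither of them called. Without the mean-variance trend the call was lost as well (adjusted p = 0.0696), and so it was with the shared label number as a replicate block. CPM and quantile normalization moved the median of all tested genes to -0.20 and -0.285. Relative to that median the difference was 0.26 with size factors, 0.26 with CPM and 0.32 with quantile normalization. In WT mice the same scalings gave -0.38 (adjusted p = 0.00176) and -0.44 (adjusted p = 0.00135), and relative to the median -0.24, -0.24 and -0.20 in the same order. Without LCs Igf1r in DETCs was 1.36-fold (1.13 to 1.64) its WT level, with an adjusted p of 0.0807. DESeq2 called this change (adjusted p = 0.0217), as did 1 fit over all 11 libraries (adjusted p = 0.0455), in a range from 0.0217 to 0.257. In KCs the fold was 0.958 (0.801 to 1.15, adjusted p = 0.754), and the interaction was 0.51 on the log2 scale (0.16 to 0.86, adjusted p = 0.223).

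**Figure D1:**
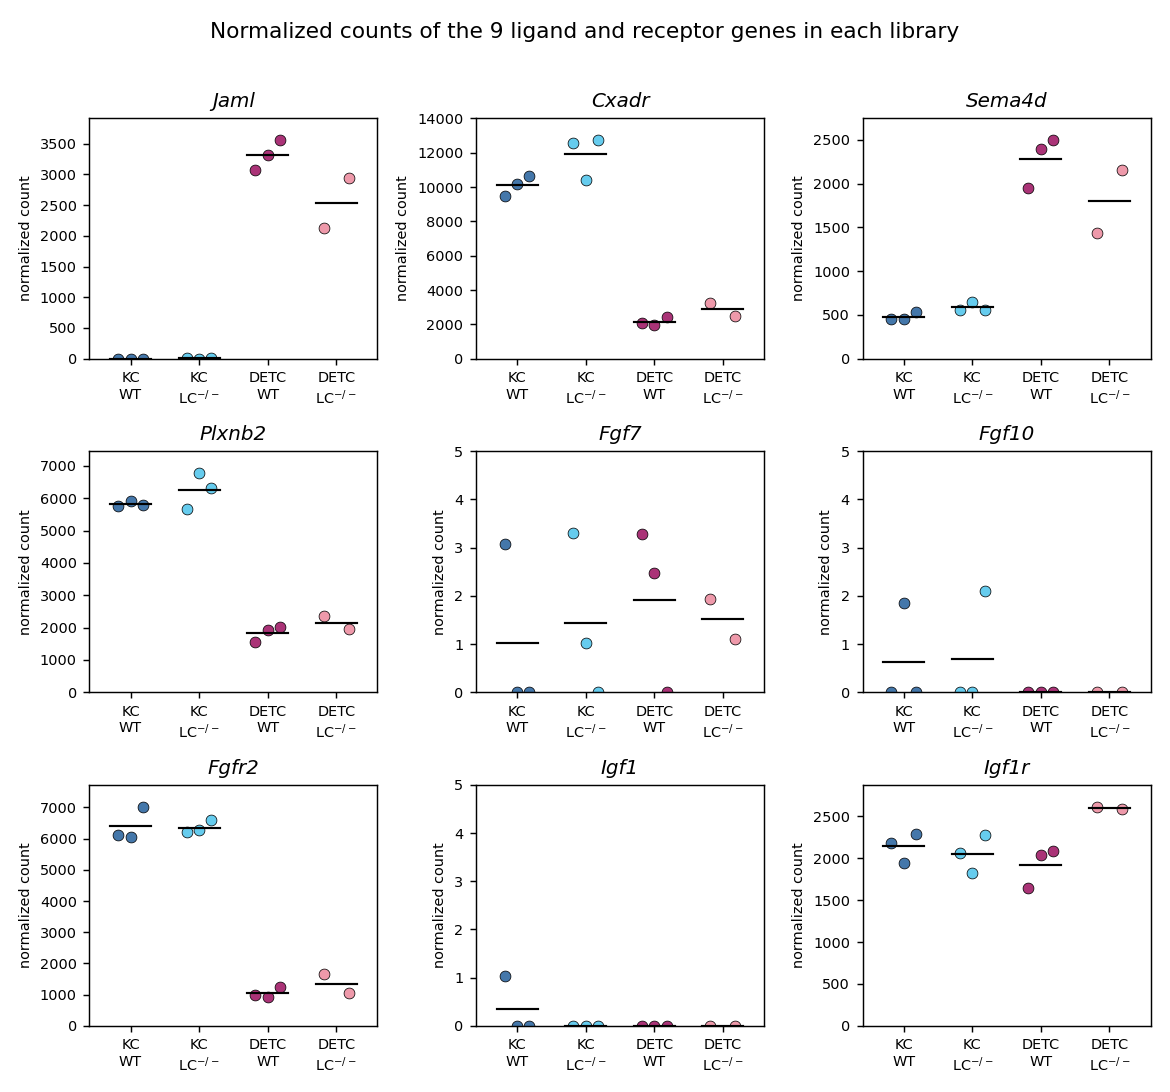
Each panel gives the normalized counts of a ligand or receptor gene in the 11 libraries, on an axis that starts at 0, with a point per library and a line at the group mean. Jaml and Sema4d are higher in DETCs, Cxadr, Plxnb2 and Fgfr2 are higher in KCs, Igf1r reaches 2615 and 2591 in LC-/- DETCs, and Fgf7, Fgf10 and Igf1 stay at 3 reads or fewer.

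**Figure D2:**
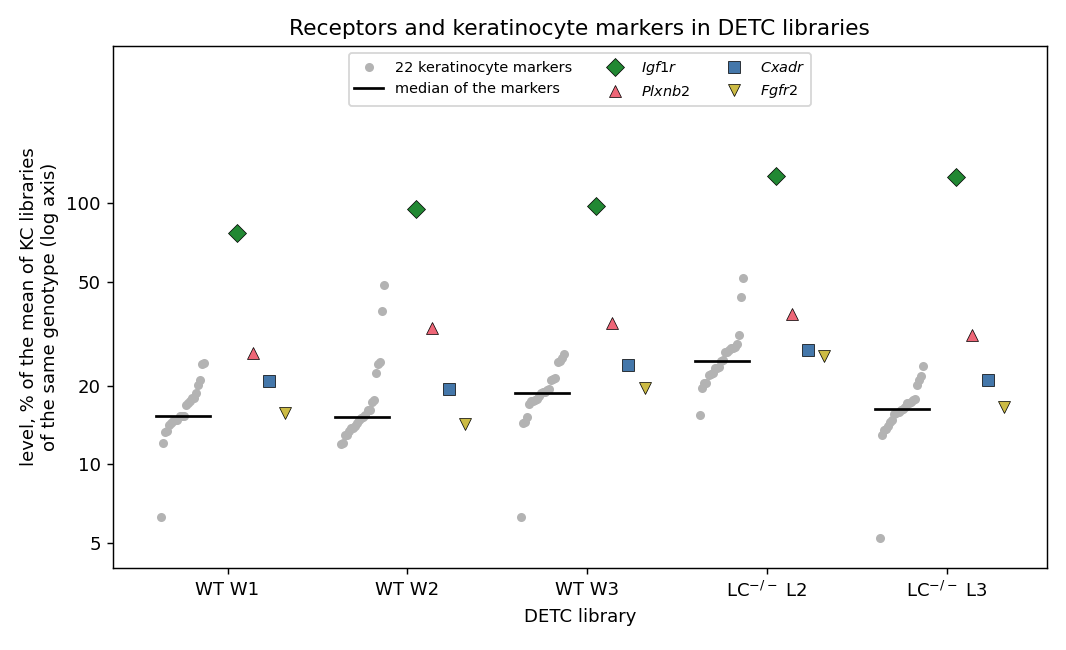
Levels in each DETC library as a percentage of the mean of the KC libraries of the same genotype, on a log axis, for 22 keratinocyte markers (grey points, line at their median) and 4 receptors. Cxadr and Fgfr2 lie within the range of the keratinocyte markers in all 5 libraries, and Igf1r lies above all of them.

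Levels were compared between genes as normalized counts per kilobase of annotated exons. In WT KCs the order was Cxadr with 1366 ± 81.2 (SD, n = 3), Plxnb2 with 753 ± 11.5, Fgfr2 with 619 ± 52.8, Igf1r with 128 ± 10.4 and Sema4d with 62.4 ± 6.39. Jaml, Fgf7, Fgf10 and Igf1 stood below 1 in these libraries by their means. Each neighbour in this KC order differed by more than the spread of its libraries down to Sema4d. In WT DETCs the order was Jaml with 1067 ± 79.3 (SD, n = 3), Sema4d with 297 ± 37.8, Cxadr with 292 ± 31.7, Plxnb2 with 237 ± 32.7, Igf1r with 114 ± 14.3 and Fgfr2 with 102 ± 17.2. Here Jaml stood apart, the library values of Sema4d overlapped those of Cxadr and of Plxnb2, and those of Igf1r overlapped those of Fgfr2. In LC-/- KCs the order was again Cxadr with 1609 ± 178 (SD, n = 3), Plxnb2 with 810 ± 71.8, Fgfr2 with 615 ± 19.9, Igf1r with 122 ± 13.5 and Sema4d with 76.2 ± 7.497, without overlap of neighbours. In LC-/- DETCs it was Jaml with 815 ± 184 (SD, n = 2), Cxadr with 390 ± 71.4, Plxnb2 with 279 ± 37.4, Sema4d with 234 ± 66.4, Igf1r with 155 ± 1.02 and Fgfr2 with 131 ± 40.8. There Plxnb2 overlapped Sema4d and Igf1r overlapped Fgfr2. Of the FGF and IGF pairs, the receptors Fgfr2 and Igf1r were thus measured in all 11 libraries and the ligands Fgf7, Fgf10 and Igf1 exceeded 3 reads in none.

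Between DETCs and KCs of WT mice, 5 of the 6 members tested were called, where 76% of all 14419 tested genes were. Jaml and Sema4d were higher, against 41% of all tested genes, and Cxadr, Plxnb2 and Fgfr2 lower, against 35.1%. In LC-/- mice all 6 were called, Igf1r being the addition, against 70.2% of all tested genes (38.1% higher and 32.1% lower). Most genes thus differed between the populations, and Jaml had to differ by the way it passed the filter, so these counts support nothing about the members. The comparisons of LC-/- with WT and of DETCs with KCs share libraries.

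Between genotypes no member was called in the main limma fits, and calls under other settings are given below. In KCs 0 of 6 were called, where 7.23% of all tested genes were (5.37% higher and 1.85% lower), and 2 members, Jaml and Sema4d, had an unadjusted p under 0.05. In DETCs 0 of 6 were called against 3.56% of all tested genes (3.13% higher and 0.43% lower), with 3 members, Jaml, Cxadr and Igf1r, at an unadjusted p under 0.05. The interaction called 0 of 6 against 0.798% (0.617% higher and 0.18% lower), with 3 members, Jaml, Sema4d and Igf1r, at an unadjusted p under 0.05. Of all 14419 tested genes, 3799 in KCs, 2775 in DETCs and 1634 in the interaction had an unadjusted p under 0.05. Where genotype groups are said not to overlap, this describes the libraries only. Groups of 3 or 2 libraries can separate by chance, and the share of all tested genes that did so was not counted. On the recovered reads edgeR called 0 members in each of these comparisons, with 3 at an unadjusted p under 0.05 in each (3899, 2878 and 1541 of all tested genes), while DESeq2 called 0 in KCs, where it gave Jaml no adjusted p, Igf1r in DETCs and Jaml in the interaction, beside 1752, 1079 and 312 of all tested genes. The median log2 change of the 6 members was 0.17 in KCs and 0.28 in DETCs, beside -0.015 and 0.02 over all tested genes. The 22 keratinocyte markers had a median of 0.03 in KCs and 0.29 in DETCs, and 0.04 in DETCs without L2. The part of keratinocyte RNA in the DETC change of the members was not tested. With size factors, the receptors Plxnb2, Fgfr2 and Igf1r in KCs had upper limits of 1.22, 1.13 and 1.15-fold and lower limits of 0.947, 0.879 and 0.801-fold. These limits do not cover other scalings: quantile normalization gave log2 changes of -0.09, -0.20 and -0.18, the first 2 below the lower limits, and CPM gave -0.03, -0.14 and -0.19. For Fgfr2 the adjusted p then was 0.0968 with quantile normalization, in a range from 0.0968 to 1.

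**Figure D3:**
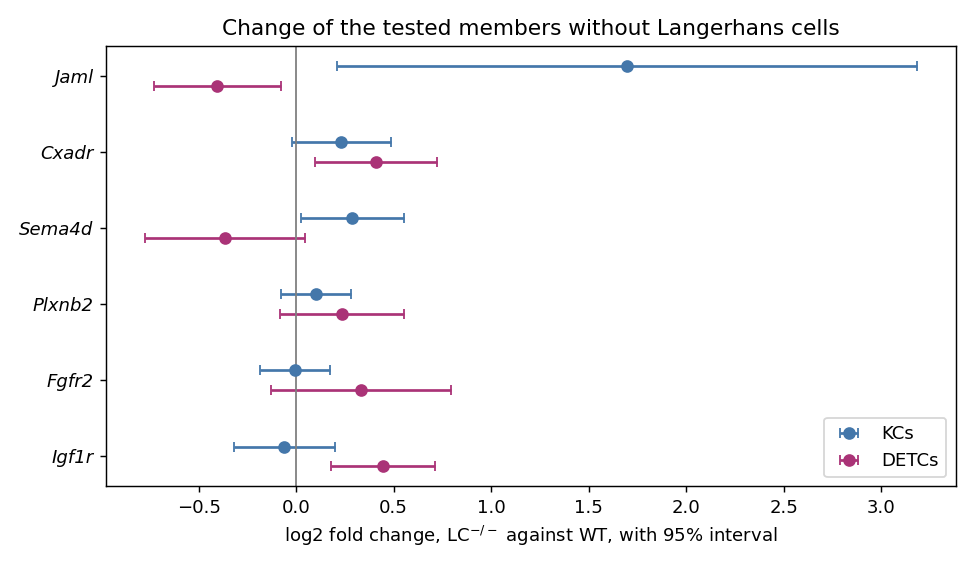
Log2 fold change of LC-/- against WT libraries for the 6 members tested, in KCs and in DETCs, with 95% intervals that are not adjusted for the number of genes. Jaml in KCs has the widest interval (0.21 to 3.18), Igf1r in DETCs lies at 0.45 (0.18 to 0.71), and the intervals of Plxnb2 and Fgfr2 include 0 in both populations.

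For each member with a mean of at least 10, the genes with the most similar profile were found by Pearson correlation of log2 values over the 11 libraries after subtraction of each population's mean, among 14101 other genes. Jaml was closest to Gypc (r = 0.904) and P4htm (0.894). Cxadr was closest to Phldb2 (0.981) and to Igfbp3 (0.978), an IGF binding protein. Sema4d was closest to Esyt1 (0.952) and Zzef1 (0.943), and its receptor Plxnb2 to Efna1 (0.957) and Avpi1 (0.954). Fgfr2 was closest to Fcgbp (0.970) and Marcks (0.956), and Igf1r to Ubqln2 (0.972) and Tgfb3 (0.965). The highest of many correlations over 11 points are high by selection, and what these genes share was not tested.

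Genes around the members were taken from 10 lists of 126 genes, of which 99 were tested. Of these, 92 were called between DETCs and KCs in WT (44 higher, 48 lower) and 88 in LC-/- (39 higher, 49 lower), where 76% (41% higher, 35.1% lower) and 70.2% (38.1% higher, 32.1% lower) of all tested genes were called. List genes that passed the filter through 1 population alone had to differ. All T cell activation products but Tnf were such genes, and the counts above include them. Genes lower in DETCs stand beside the keratinocyte markers, whose DETC share of the KC mean in WT had a median of 16.5% (9.32% to 33.1%). The part of keratinocyte RNA in the DETC values of list genes was not tested. Among relatives of Jaml and Cxadr 3 of 4 tested genes were called in WT, against 76% of all tested genes, and F11r, a junction protein of epithelia, had a mean of 4164 normalized counts in WT KCs and 621 in WT DETCs (0.149-fold, adjusted p = 2.06e-09). Jam2 had 43.8 in WT DETCs and 0.885 in WT KCs, and Igsf5 had 28.1 in WT DETCs and 0 in KCs. Jam2 and Igsf5 passed the filter through DETC libraries alone and so had to differ.

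All 14 genes of the class 4 semaphorin and plexin list were called in WT, 7 in each direction, against 76% of all tested genes (41% higher, 35.1% lower). Cd72, the receptor for CD100 on lymphocytes, had 615, 713 and 724 normalized counts in WT DETCs and 4.10, 5.57 and 2.59 in WT KCs. Sema4f and Plxnb3 were likewise seen in DETCs, with means of 117 and 115 in WT against 0 and 0.576 in WT KCs. Plxnb1, a further receptor for CD100, was lower in DETCs (0.165-fold, adjusted p = 5.87e-08), as was Plxna2 (0.164-fold). Plxna4 had 12.3, 16.7 and 10.4 normalized counts in WT KCs and 1.09, 1.65 and 0 in WT DETCs. It passed the filter through KC libraries alone and so had to differ. Cd72, Sema4f, Plxnb3 and Plxnc1 passed through DETC libraries alone and had to differ as well. The count of 14 includes these genes and supports nothing about the list. In the plexin-B signalling list 11 of 12 genes were called in WT, against the same 76%, with Limk1 6.66-fold higher in DETCs and Met, a receptor tyrosine kinase that associates with B plexins, at 0.149-fold. The folds of Plxnb1, Plxna2 and Met lay within the range of the keratinocyte marker shares in WT DETC libraries (9.32% to 33.1%).

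Of the other FGF receptors and their partners 4 of 5 tested genes were called in WT, against 76% of all tested genes, with a median log2 difference of -2.24 beside 0.07 over all tested genes. Fgfr3 (0.145-fold, adjusted p = 1.88e-09), Fgfr1 (0.212-fold) and Fgfbp1 (0.182-fold) were lower in WT DETCs than in KCs, like Fgfr2. These folds lay within the range of the keratinocyte marker shares in WT DETC libraries (9.32% to 33.1%). How much of these transcripts came from DETCs was not tested. Fgfrl1, which lacks the kinase domain, was 2.14-fold higher in DETCs (adjusted p = 0.00015). All 9 FGF target and feedback genes were called in WT, 3 higher and 6 lower in DETCs, with a median log2 difference of -0.81, where 76% of all tested genes were called (41% higher, 35.1% lower). Spry2, an inhibitor of receptor tyrosine kinase signalling, had 14469, 15904.5 and 14447 normalized counts in WT DETCs and 424, 472 and 468 in WT KCs, 32.8-fold higher (adjusted p = 6.35e-11). Spry4 was 127-fold higher (adjusted p = 1.16e-10), whereas Spry1 was at 0.247-fold and Dusp6 at 0.413-fold. Genes of this list respond to other receptors too, the T cell receptor among them.

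In the IGF list 8 of 10 tested genes were called in WT, 1 higher and 7 lower in DETCs, with a median log2 difference of -1.59. This count stood beside 76% of all tested genes (41% higher, 35.1% lower). Igf2r, which takes up IGF2, was 7.62-fold higher in DETCs (adjusted p = 5.45e-09), while Igfbp3, which binds IGF1 outside the cell, was at 0.15-fold (adjusted p = 3.78e-08). Igfbp3 had 31377, 34503 and 36715 normalized counts in WT KCs and 50662, 40742.5 and 57786 in LC-/- KCs (L1, L2, L3). Igfbp3 was not called between the genotypes in KCs (adjusted p = 0.112). Below the receptors, Pik3cd, the PI3K catalytic subunit of leukocytes, had means of 14818 normalized counts in WT DETCs and 2.53 in WT KCs, and Gab1 was at 0.157-fold and Irs1 at 0.201-fold. The folds of Igfbp3, Gab1 and Irs1 lay within the range of the keratinocyte marker shares in WT DETC libraries (9.32% to 33.1%).

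Between genotypes 11 of the 99 tested list genes were called in KCs (6 higher, 5 lower), and 17 by edgeR (12 higher, 5 lower) and 20 by DESeq2 (13 higher, 7 lower), which called 1783 and 1752 of all 14419 tested genes there. In DETCs 0 were called, where 26 had an unadjusted p under 0.05 (2775 of all tested genes), edgeR called 1 (483 of all) and DESeq2 13 (1079 of all). By limma, 7.23% of all tested genes were called in KCs (5.37% higher, 1.85% lower) and 3.56% in DETCs (3.13% higher, 0.43% lower). In LC-/- KCs Irs2, an adaptor of the IGF1 and insulin receptors, rose 1.29-fold (1.19 to 1.39, adjusted p = 0.0235), from 5168, 5586 and 5543 normalized counts in WT to 7019, 6819 and 7139. Irs1, the related adaptor, fell to 0.533-fold (0.431 to 0.659, adjusted p = 0.0251), from 402, 301 and 359 to 191, 194 and 175. Neither gene's groups overlapped, and the receptor upstream, Igf1r, overlapped between the same libraries. Ptpn11 rose 1.28-fold (adjusted p = 0.0193) and Pik3r1, a regulatory subunit of PI3K, fell to 0.727-fold (adjusted p = 0.0479).

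Further calls in LC-/- KCs were Met (1.56-fold, adjusted p = 0.0449), F11r (1.19-fold, adjusted p = 0.0411), Fgf11 (0.627-fold, adjusted p = 0.0314) and Fgfr3 (0.851-fold, adjusted p = 0.0383). Of 7 tested genes of wound keratins and hyaluronan, which were all called between DETCs and KCs in WT (1 higher, 6 lower, against 76% of all tested genes), those called in LC-/- KCs were Cd44, the hyaluronan receptor, at 1.85-fold (1.46 to 2.36, adjusted p = 0.0306), and Krt16 at 1.41-fold (adjusted p = 0.0354). Tnf fell to 0.586-fold (adjusted p = 0.0426). All 11 kept their direction in every alternative, and leaving out 1 KC library ended the call in 60 of 66 cases: for all 11 genes without L1, without L3, without W1 and without W2, for 10 without W3 and for 6 without L2, at adjusted p from 0.0525 to 0.145. Other alternatives ended 22 of 110 calls at adjusted p from 0.0512 to 0.275: 6 with quantile normalization, 5 with 1 fit over all 11 libraries, 4 with CPM, 4 without the trend, 2 without a filter and 1 with edgeR.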

How the data were processed

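Poly-A RNA of sorted KCs and DETCs was sequenced as paired-end reads. The authors trimmed the reads with cutadapt, aligned them to GRCm38 with hisat2, used featureCounts for counting and scaled the result with DESeq2 size factors. The deposited signal is thus a normalized count, not a raw count. Whole reads were recovered from the smallest value of a library, of which the others are multiples, for at least 99.998% of values (tolerance 0.001). Symbols, positions and exon lengths came from GENCODE mouse release M21, which matched 52403 of 52550 genes. Members and lists were chosen with earlier results of these data known.

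Tests were run with limma (lmFit, eBayes with trend) in R on log2(normalized count + 1), for genes with a CPM above 1 in at least 2 libraries, with Benjamini-Hochberg adjustment over 14419 genes and a threshold of 0.05. Only the groups compared entered a fit, and all 11 libraries entered the interaction. Fold changes are on this log2 scale, which understates those of low genes. Intervals are 95% and unadjusted. Libraries of a group came from separate samples by their labels, and differed by more than counting error (chi-square per degree of freedom 7.745 to 23.05). Alternatives were pseudocounts of 0.5 and 8, no filter, a minimum mean of 10, CPM, quantile normalization, edgeR with TMM and DESeq2 on the recovered reads, no trend, 1 fit over all libraries, a replicate block and omission of each library. The deposit gives no strand setting. Versions were R 4.3.3, limma 3.58.1, edgeR 4.0.16 and DESeq2 1.42.0.

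Named genes were the 9 members, every list gene called between genotypes, up to 3 called genes per list and direction between DETCs and KCs with the largest change and a mean of at least 10 over the 11 libraries, and the 2 genes most like each member. Marker and pathway lists were written by hand.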

Additional observations from a re-analysis of the deposited data

Results flagged for a closer look

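The genotype change differed between DETCs and KCs in 2 of 99 tested list genes (2.02%) by the interaction test, against 0.798% of all tested genes, and in 3 by edgeR and 5 by DESeq2, which called 114 and 312 of all 14419 tested genes. Ptpn11 encodes SHP2, a phosphatase downstream of FGFR2 and the IGF1 receptor. It had 2241, 2193 and 2298 normalized counts in WT KCs and 2954, 2788 and 2851 in LC-/- KCs, and 5652, 4984 and 5836 in WT DETCs and 4446 and 4278 in LC-/- DETCs. The LC-/- values were above all WT values in KCs and below all WT values in DETCs. The difference of the changes was -0.681 on the log2 scale (adjusted p = 0.0146), and the call was lost without the DETC library L2 (-0.708, adjusted p = 0.0529), without the KC library L1 (-0.66, adjusted p = 0.0508) and without the KC library W2 (-0.66, adjusted p = 0.0563), and also without the mean-variance trend (adjusted p = 0.0773). The replicate block, described below, ended the call too, and over the other alternatives the adjusted p ran from 3.63e-06 to 0.0773.

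Tnf, a cytokine of activated DETCs that KC libraries also held, had 179, 193 and 237 normalized counts in WT KCs and 122, 105 and 127 in LC-/- KCs, and 2579, 2875 and 2727 in WT DETCs and 2638 and 3264 in LC-/- DETCs. The KC groups did not overlap and the DETC groups did. The difference of the changes was 0.879 on the log2 scale (adjusted p = 0.0492). The call was lost without any of the 11 libraries, with log2 values from 0.725 to 1.03 and adjusted p from 0.0593 to 0.123. It was also lost with CPM (adjusted p = 0.0583), quantile normalization (0.214), a pseudocount of 0.5 (0.053), no filter (0.0716) and no trend (0.145). The replicate block ended it too, and the adjusted p ran from 0.000938 to 0.214 over the alternatives. No member of the ligand and receptor pairs was called in the main limma fit of the interaction, and groups of 3 or fewer libraries were not tested for a library that stood apart.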

How the results depend on the processing

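The calls of Cxadr, Sema4d, Plxnb2 and Fgfr2 between DETCs and KCs kept their direction and their side of the threshold in every alternative, in WT and LC-/- mice. No member was called between genotypes except Jaml in KCs with 1 fit over all 11 libraries (adjusted p = 0.031), Jaml in DETCs with CPM (adjusted p = 0.0457) apart from Jaml in DETCs without L3, Igf1r in DETCs with DESeq2 and with 1 fit over all 11 libraries, and in the interaction Jaml with DESeq2 (adjusted p = 0.0429) and Sema4d without the DETC library L3. Near 0, signs turned when 1 library was left out: the values ran from -0.046 to 0.063 for Fgfr2 in KCs, from -0.138 to 0.022 for Igf1r in KCs, and for the interaction from -0.012 to 0.364 for Cxadr and from -0.003 to 0.271 for Plxnb2. Plxnb2 in KCs was -0.031 with CPM and -0.091 with quantile normalization, and Cfl1 in WT DETCs against KCs was -0.055 with quantile normalization. The causes were not tested.

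Genes called between genotypes in KCs numbered 1042, and 1752 with DESeq2, 1783 with edgeR, 1740 with a minimum mean of 10, 1617 without a filter and 633 with quantile normalization. In DETCs they numbered 514, and 959 with 1 fit over all libraries, 1079 with DESeq2, 263 with quantile normalization and 0 without the trend (2407 at an unadjusted p under 0.05, and edgeR 483). The interaction called 115 genes, and 312 with DESeq2 and 22 without the trend. Leaving out 1 library gave 5 to 721 in KCs, 35 to 590 in DETCs and 32 to 138 in the interaction, 10382 to 10829 between the populations in WT and 8036 to 9851 in LC-/-. Where an arm kept 1 library, that library was assumed to vary like the others.

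CPM moved the median log2 change of all tested genes to -0.15 in KCs and -0.18 in DETCs, and to -0.15 and -0.20 between the populations in WT and LC-/-, where quantile normalization gave -0.24 and -0.285. The share of calls that were higher was 74.4% in KCs and 87.9% in DETCs, but 27.2% and 28.7% with CPM and 66.2% and 67.7% with quantile normalization. Between the populations it was 53.9% in WT and 54.3% in LC-/-, and 41.3% and 39.6% with quantile normalization and 44.8% and 42.6% with CPM. In the interaction it was 77.4%, 62.6% with CPM and 59.3% with quantile normalization.

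The number shared by a KC and a DETC library was used as a replicate block. Deviations of libraries with the same number from their group means correlated at -0.053 (W1), 0.067 (W2), 0.117 (W3), 0.143 (L2) and 0.117 (L3). Of the 5 DETC libraries, 4 correlated best with the KC library of their own number, and W1 did not. Against the same KC library, the DETC libraries L2 and L3 had values of opposite sign (0.143 and -0.143 for the KC library L2). They mirror each other because that DETC group has 2 libraries, so they are not independent. With the replicate block the calls numbered 10873 in WT in place of 10965, 9378 in LC-/- in place of 10126, and 18 in the interaction. Igf1r in LC-/- mice then had an adjusted p of 0.067, and the list genes Ptpn11 and Tnf one of 0.0955 and 0.0702 in the interaction.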

Other observations

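The CD45 gate of the DETC sort takes other leukocytes as well, and the libraries differed in markers of other T cells. Markers of α/β T cells, 6 of 6 above 3 reads in every DETC library, summed to 5490.0, 9181 and 6722 normalized counts in WT and to 2943 (L2) and 11761 (L3) in LC-/-, with Trac the most abundant. In KC libraries the same markers summed to between 12.1 and 28.7. Jaml and Sema4d were lowest in L2 as well, and whether other T cells contributed to Jaml or Sema4d was not tested. Markers of dermal γ/δ T17 cells, 9 of 9 above 3 reads in every DETC library, summed to 4010.3, 5154 and 4721 in WT and to 3694 and 3468 in LC-/-, with Maf the most abundant, a gene that KCs also held at 1247 to 1862. Ccr6, which marks these cells, had 383, 396 and 602 normalized counts in WT DETCs, 223 and 149 in LC-/- DETCs and 0 in KCs.

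The 8 Langerhans cell markers, whose cells the gates on MHC-II and langerin remove, summed to 246, 375 and 218 normalized counts in WT KCs and to 71.6, 77.4 and 145 in LC-/- KCs (L1, L2, L3), with Cd74 or H2-Eb1 the most abundant. In DETC libraries they summed to 1304, 1296 and 1557 in WT and to 801 and 963 in LC-/-, where Itgax, which T cells of the epidermis also express, was the most abundant. Cd207 had 21.8, 16.5 and 46.7 normalized counts in WT DETCs, and was at 0 in the DETC library L2 and at 4.42 in L3.

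Fibroblasts are a known source of Fgf7, Fgf10 and Igf1 in skin. Of 10 fibroblast markers, 3 to 7 were above 3 reads per library, and their sum of 949 to 1211 in KCs and 163 to 414 in DETCs was mostly Col6a1. Mfap5 was at 0 in all 11 libraries, Lum had at most 1 read, and Dcn had 5.25 to 27.7 normalized counts in KCs and at most 2.92 in DETCs. Of the 9 macrophage markers C1qb and C1qc were at 0 in all libraries, and the sums of 39.8 to 69.4 in KCs and 238 to 316 in DETCs were mostly Cd68. Of the 6 mast cell markers Kit alone exceeded 3 reads, with 5.12 to 11.6 in KCs and 294 to 573 in DETCs, while Mcpt4, Tpsb2, Cpa3 and Ms4a2 were at 0 in every library. The 6 melanocyte markers summed to 283 to 461 in KCs and to 121 to 193 in DETCs, mostly Mitf. The 4 endothelial markers summed to 4.32 to 14.7 in KCs and to 15.5 to 47.5 in DETCs, led by Pecam1 except in the KC library W2, where Kdr led. The 6 hair follicle markers summed to 4057 to 5806 in KCs and to 808 to 1821 in DETCs, led by Sox9, with Shh at no more than 2 reads.

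Of 12 products of T cell activation, all but Tnf passed the filter through DETC libraries alone and had to differ, so no separate count of calls is given. Cd69 had 6170, 7061 and 7249 normalized counts in WT DETCs and at most 2.78 in KCs, Xcl1 had 5225, 4187 and 5854 and at most 2.05, and Il13 had 1642, 2389 and 2167 and at most 0.864. Igf1, at 0 in the same DETC libraries, was thus not among the products measured there, nor were Fgf7 and Fgf10 above 3 reads.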
